A study of Mus musculus with 8 samples.

Results

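A group of 8 cytokine signalling genes was followed across the study: the 4 suppressors of cytokine signalling Socs1, Socs2, Socs3 and Cish, and the 4 signal transducers Stat3, Stat5a, Stat5b and Stat6, which work mainly outside the interferon response. They were taken by gene symbol, whatever their level, from a table of 17518 genes. Polyadenylated RNA of MH-S cells, an established line of mouse alveolar macrophages, was sequenced in 8 libraries. The groups were cells given 100 ng/mL lipopolysaccharide (LPS, a bacterial cell wall component) with 1 µg/mL of the nanoparticles named RCMNs (LPS+RCMNs, n = 3), cells given LPS (n = 2) and control cells given phosphate-buffered saline (n = 3). All groups were the same line, with no genetic change named in the labels. The series title describes nanoparticles that respond to reactive oxygen species. No separate dose is stated for LPS alone, and no exposure time was found in the labels. Whether replicates came from separate cultures is not stated, so a p-value speaks only for the spread among these libraries, which may be technical. All values come from 1 cell line, grown outside the lung.

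Cytokines such as interleukin-6 and interleukin-4 bind receptors that carry Janus kinases (JAKs). The kinases phosphorylate STAT proteins, which then pair, enter the nucleus and switch on target genes. STAT3 serves the interleukin-6 and interleukin-10 families, STAT5A and STAT5B serve colony-stimulating factors and growth hormone, and STAT6 serves interleukin-4 and interleukin-13. SOCS proteins and CIS, the product of Cish, are induced by the same pathways and restrain them: they bind kinases or receptors through an SH2 domain and recruit a ubiquitin ligase through a SOCS box. In macrophages SOCS3 is known as the brake on interleukin-6 signalling through STAT3, and SOCS1 as a brake on interferon signalling. A transcript level does not report phosphorylation of a STAT.

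The promoters of Cish and Socs3 are shown because these were the SOCS genes whose transcripts changed, and because the 2 promoters hold the letters that activated STAT dimers are known to bind. The sequences are RefSeq's on build GRCm38.p6, from 160 bases before the start site of each promoter entry to 30 bases after it, in the direction of the gene. Capitals mark TTCNNNGAA, which is its own reverse complement, so a search of 1 strand covers both. The Cish stretch is chr9:107296499-107296688 on the plus strand, and the Socs3 stretch is chr11:117969337-117969526 on the minus strand.
Cish: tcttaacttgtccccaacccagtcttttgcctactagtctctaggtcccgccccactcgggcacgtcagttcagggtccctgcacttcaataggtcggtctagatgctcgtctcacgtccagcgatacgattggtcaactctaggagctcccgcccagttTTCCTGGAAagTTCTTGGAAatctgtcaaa
Socs3: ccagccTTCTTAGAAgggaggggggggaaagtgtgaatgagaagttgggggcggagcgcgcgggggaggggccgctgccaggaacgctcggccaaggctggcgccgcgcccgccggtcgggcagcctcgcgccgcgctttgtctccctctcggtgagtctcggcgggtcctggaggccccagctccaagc

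The Cish stretch held TTCCTGGAA at bases 1 to 9 and TTCTTGGAA at bases 12 to 20 of the annotated transcript, 2 matches that do not overlap. The Socs3 stretch held TTCTTAGAA, with its first base at -154 and its last at -146 from the start site of its promoter entry. In genome positions this match is chr11:117969512-117969520, inside the annotated span of Socs3, 117966079 to 117970336. The start site of that entry therefore lies within the annotated gene and not at its outer end. Which start the cells used was not tested. Promoter entries of 250 bases before to 50 after a start were found for 7 of the 8 genes, 9 entries in all. The entries of Socs1, Stat3, Stat5a, Stat5b and Stat6 did not hold TTCNNNGAA. Those of Stat5b, chr11:100850532-100850831 and chr11:100822521-100822820, also lie inside the annotated gene, 100780731 to 100859004. Of 32851 mouse promoters of the same length, 2726 (8.3%) held it. The longer-spaced TTCNNNNGAA, the form that STAT6 is known to prefer, was in none of the 9 entries and in 6.95% of all promoters. A match of letters is a description and does not show that a factor was bound.

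Each library held between 18.6 and 21.2 M (mega) counts, and 11911 genes passed the filter on low counts and were tested. Levels below are CPM, for comparing samples, which is counts divided by the TMM-scaled library size in M, or FPKM, fragments per kb of transcript and M fragments as the authors deposited it, for comparing genes. At 3 counts a gene would stand at 0.130 to 0.182 CPM, depending on the library, counting error only. In the LPS libraries short genes were high and long genes low: the median log2 fold change against control was 1.25 in the shortest of 10 equal length bins of genes and -1.0 in the longest. Replicate 1 of the control and replicate 2 of LPS+RCMNs were unlike their fellow libraries, with chi-square per degree of freedom of 35.5 to 47.4 within their groups, where the other pairs gave 1.93 to 12.5. Erythroid markers summed to 1.11 to 34.6 CPM in LPS+RCMNs, 4360 to 5625 CPM in LPS and 1.21 to 21.4 CPM in control. Gata1, which defines erythroid cells, stood at no more than 0.182 CPM in any library, and Alas2 reached 33.3 CPM in LPS; the part of this RNA in the results below was not tested. All 17 macrophage markers were listed, 12 of them were tested, and they summed to 6499 to 8173, 5336 to 6486 and 4710 to 5649 CPM in the same order of groups. Lyz2, Csf1r and Adgre1 were high in every library, and the alveolar markers were mixed: Siglecf, Chil3, Car4 and Ear2 stood at no more than 0.242 CPM, Pparg at no more than 0.506 CPM and Marco at no more than 1.32 CPM, while Itgax was at 6.24 to 25.7 CPM and Fabp4 at 11.8 to 98.4 CPM. Neutrophil markers summed to 5.57 to 5.94 CPM in LPS and at most 0.709 CPM elsewhere, lymphocyte markers to at most 1.58 CPM, epithelial markers to at most 0.424 CPM, and fibroblast and endothelial markers to at most 3.63 CPM in any library.

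Of the 8 genes, 7 were tested. In LPS versus control, 4 of these 7 changed: Socs3 and Cish rose and Stat5a and Stat6 fell. Of all tested genes 63.4% were called in that comparison, so 4 of 7 is near the background. In LPS+RCMNs versus LPS, 5 of 7 changed, with Socs3 and Cish lower and Stat3, Stat5a and Stat6 higher, where 59.3% of all tested genes were called. These 2 comparisons share the LPS libraries, and each also shares its other group with LPS+RCMNs versus control. In LPS+RCMNs versus control only Socs3 was called among the 7, and 7.56% of all tested genes were. A call is an adjusted p below 0.05 (edgeR's quasi-likelihood test, Benjamini-Hochberg over all 11911 genes).

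The length trend and the unlike libraries bear on these counts. With the trend on gene length removed, 4 of the 7 were called in LPS versus control (46.0% of all tested genes), 3 in LPS+RCMNs versus LPS (40.2%) and 1 in LPS+RCMNs versus control (7.51%). With a surface on length and level removed the counts were 4, 3 and 2, against 42.9%, 38.4% and 7.46% of all genes. Without control replicate 1 and LPS+RCMNs replicate 2 they were 5, 5 and 3, against 74.9%, 73.8% and 25.5%. By limma on log2(FPKM + 1) they were 6, 7 and 2, against 67.5%, 63.5% and 8.16%.

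**Figure D1:**
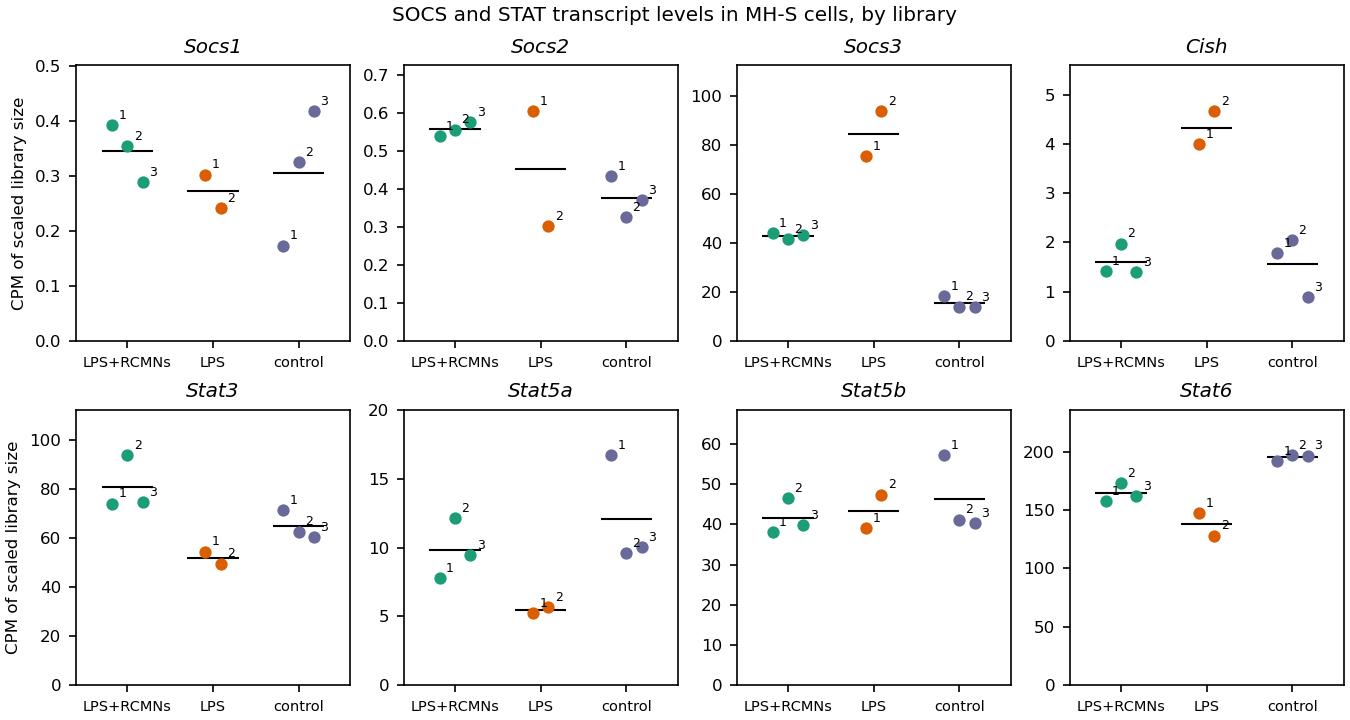
Level of each gene in every library, in CPM of scaled library size, with 1 panel per gene; points are libraries marked with their replicate number and lines are group means. Socs3 and Cish are highest in the 2 LPS libraries, Stat5a and Stat6 are lowest there, and control replicate 1 is the highest point for Stat5a and Stat5b.

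Socs3 rose in LPS and was intermediate in LPS+RCMNs, the only gene of the 7 called in all 3 comparisons. It lies on chromosome 11 at 117966079 to 117970336 (gene ID 12702; all gene positions are on GRCm38.p6). Its level was 44.0, 41.5 and 43.2 CPM in the LPS+RCMNs libraries, 75.4 and 93.8 CPM in the LPS libraries and 18.2, 14.0 and 13.9 CPM in the control libraries. The 3 groups did not overlap: both LPS libraries were highest, every control library was lowest, and the LPS+RCMNs libraries lay between. Groups that do not overlap were found for 76.1% of all tested genes in LPS versus control, 74.9% in LPS+RCMNs versus LPS and 29.8% in LPS+RCMNs versus control. The log2 fold change was 2.46 ± 0.14 (SE, adjusted p = 1.91e-06) in LPS versus control, a 5.51-fold rise. It was -0.98 ± 0.14 (adjusted p = 0.000283) in LPS+RCMNs versus LPS, and 1.48 ± 0.13 (adjusted p = 0.000452) in LPS+RCMNs versus control. In that last comparison Socs3 had the 33rd smallest p of 11911 genes. The 3 calls were kept in all 18 alternative settings, and with the trend on gene length removed the fold changes were 2.47, -0.97 and 1.49. The gene's length, 2.69 kb, placed it in length bin 5, whose median fold change in LPS versus control was 0.02. In bulk RNA, fewer cells that express a gene and less of its RNA per cell cannot be told apart.

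Cish, which encodes CIS, a protein that binds phosphorylated receptors and is a known STAT5 target, rose in LPS and was lower in LPS+RCMNs than in LPS, at a far lower level than Socs3. It lies on chromosome 9 at 107296659 to 107302784 (gene ID 12700). Its level was 1.42, 1.97 and 1.39 CPM in the LPS+RCMNs libraries, 4.0 and 4.66 CPM in the LPS libraries and 1.78, 2.05 and 0.883 CPM in the control libraries. Both LPS libraries were above all others, and the LPS+RCMNs and control libraries overlapped. The values rest on 28.8 to 38.7 estimated counts per library in LPS+RCMNs, 66.2 and 77 in LPS, and 19.4 to 44.2 in control. The log2 fold change was 1.46 ± 0.34 (adjusted p = 0.00472) in LPS versus control and -1.44 ± 0.35 (adjusted p = 0.00567) in LPS+RCMNs versus LPS. The value in LPS+RCMNs versus control was 0.02 ± 0.33, with a 95% interval of -0.72 to 0.76. That interval holds the spread between libraries as well as counting error. A change of either sign within it remains possible. Removal of the length trend gave 1.56 and -1.52 for the first 2 comparisons, and both calls were kept in all 17 settings in which the gene was tested.

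Socs2, known for restraining growth hormone signalling through STAT5, was at the edge of detection. It lies on chromosome 10 at 95383903 to 95417321 (gene ID 216233) and shares 502 bases with the long non-coding RNA gene Gm33230 in the annotation. Its estimated counts were 11, 11 and 12.2 in the LPS+RCMNs libraries, 10 and 5 in the LPS libraries and 10, 6.96 and 8 in the control libraries. The log2 fold changes of 0.26 ± 0.45 in LPS versus control, 0.29 ± 0.44 in LPS+RCMNs versus LPS and 0.55 ± 0.38 in LPS+RCMNs versus control did not pass the test. By limma on log2(FPKM + 1) Socs2 was called higher in LPS+RCMNs than in LPS (0.19 ± 0.06, adjusted p = 0.0219). In that setting 63.5% of all tested genes were called and the median of all genes was 0.27. The LPS+RCMNs libraries, at 0.540 to 0.577 CPM, were all above the control libraries, at 0.326 to 0.433 CPM, a separation that, in either direction, 29.8% of all tested genes shared. The 95% interval of that difference, -0.31 to 1.42, includes 0.

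Socs1, the SOCS protein most closely tied to interferon signalling, was at the limit of detection in all 3 groups. It lies on chromosome 16 at 10783808 to 10785536 (gene ID 12703). Its counts were 8, 7 and 6 in the LPS+RCMNs libraries, 5 and 4 in the LPS libraries and 4, 7 and 9 in the control libraries. The groups overlapped, and the gene did not pass the filter on low counts. Pooled over the libraries of a group, its level was 0.345 CPM (95% Poisson interval 0.213 to 0.527) in LPS+RCMNs, 0.273 CPM (0.125 to 0.517) in LPS and 0.303 CPM (0.185 to 0.467) in control; these intervals cover counting error only. Fitted without the filter, the log2 fold change in LPS versus control was -0.13 ± 0.57, so neither a rise nor a fall of Socs1 was detectable at this depth.

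Among the STATs, Stat3 was higher in LPS+RCMNs than in LPS. STAT3 carries the signals of interleukin-6 and interleukin-10, and SOCS3 restrains the receptor that activates it. Stat3 lies on chromosome 11 at 100886806 to 100939594 (gene ID 20848) and shares 1257 bases with the long non-coding RNA gene Gm46295 in the annotation. Its level was 73.9, 93.6 and 74.4 CPM in the LPS+RCMNs libraries, 54.4 and 49.5 CPM in the LPS libraries and 71.4, 62.6 and 60.4 CPM in the control libraries. The groups did not overlap, with the LPS+RCMNs libraries highest and both LPS libraries lowest. The log2 fold change was 0.63 ± 0.13 (adjusted p = 0.00274) in LPS+RCMNs versus LPS. In LPS versus control it was -0.32 ± 0.13 (adjusted p = 0.0598) and in LPS+RCMNs versus control 0.32 ± 0.12 (adjusted p = 0.144), and neither passed the test. The length of the gene, 4.47 kb, is in length bin 8, where the median of all genes was -0.50 in LPS versus control and 0.46 in LPS+RCMNs versus LPS. With the length trend removed, Stat3 was not called in either: its values were 0.22 ± 0.14 in LPS versus control, of opposite sign, and 0.13 ± 0.14 in LPS+RCMNs versus LPS. In LPS versus control Stat3 was called lower in 5 of 18 settings, among them limma on log2(FPKM + 1) (-0.74 ± 0.13, adjusted p = 0.00135), and its sign was reversed in 2, both of them length corrections. Without control replicate 1 and LPS+RCMNs replicate 2, the difference in LPS+RCMNs versus control was 0.30 ± 0.07 and was called (adjusted p = 0.0100), where 25.5% of all tested genes were called.

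Stat6, the STAT of interleukin-4 and of alternative macrophage activation, fell in LPS. It lies on chromosome 10 at 127642955 to 127660987 (gene ID 20852). No label says whether reads were counted by strand. In the annotation the gene shares 70 bases with Nab2 and 4773 bases with the long non-coding RNA gene Gm30989. Its level was 158, 173 and 162 CPM in the LPS+RCMNs libraries, 147 and 128 CPM in the LPS libraries and 192, 197 and 196 CPM in the control libraries. No groups overlapped: control libraries were highest and both LPS libraries were lowest. The log2 fold change was -0.50 ± 0.09 (adjusted p = 0.00135) in LPS versus control. It was 0.25 ± 0.09 (adjusted p = 0.0415) in LPS+RCMNs versus LPS, a call that was lost in 14 of 18 alternative settings. Between LPS+RCMNs and control it was -0.25 ± 0.08 (adjusted p = 0.112), not called, with the groups apart. At 3.75 kb the gene is in length bin 7, whose medians were -0.33 and 0.30 in the first 2 comparisons. With the length trend removed, the values were -0.15 ± 0.10 and -0.08 ± 0.09, neither of them called, and the second of opposite sign. The fall in LPS versus control was called in the other 17 settings, with -0.35 ± 0.08 (adjusted p = 0.00809) where the surface on length and level was removed. The value in LPS+RCMNs versus control was -0.23 ± 0.08 with the length trend removed, not called. It was called lower in 3 of 18 settings. One left out control replicate 1 and LPS+RCMNs replicate 2 (-0.27 ± 0.07, adjusted p = 0.0214). The others were limma on log2(FPKM + 1) (-0.31 ± 0.07, adjusted p = 0.0371) and the surface on length and level removed. Of all tested genes 25.5%, 8.16% and 7.46% were called in these settings.

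**Figure D2:**
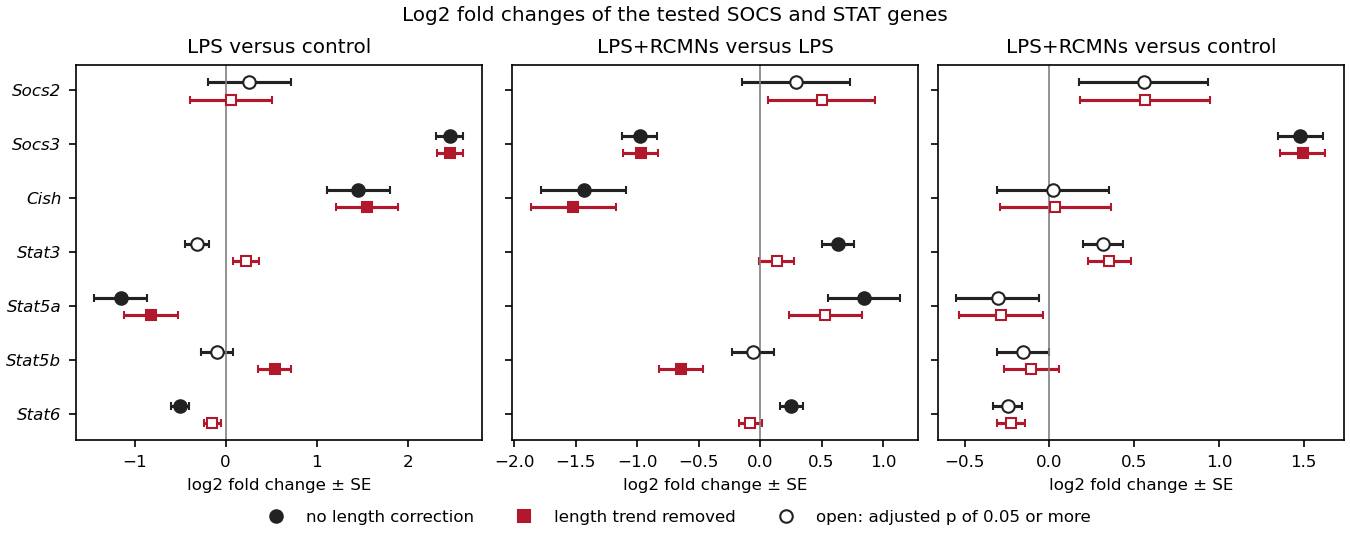
Log2 fold change with its standard error for the 7 tested genes in each comparison; circles are the fit without correction, squares the fit with the trend on gene length removed, and open symbols have an adjusted p of 0.05 or more. Socs3 and Cish stay in place between the fits, while Stat3, Stat5a, Stat5b and Stat6 shift upward in LPS versus control and downward in LPS+RCMNs versus LPS.

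Stat5a and Stat5b encode nearly identical STAT5 proteins and lie next to each other and to Stat3 on chromosome 11: Stat5b spans 100780731 to 100859004 (gene ID 20851) and Stat5a 100859351 to 100885169 (gene ID 20850). On GRCm38.p6, 346 bases separate Stat5b from Stat5a and 1636 bases separate Stat5a from Stat3, and the cluster spans 158.9 kb. Because the pair is so alike, the way their shared reads were divided is uncertain. Stat5a was at 7.80, 12.2 and 9.47 CPM in the LPS+RCMNs libraries, 5.21 and 5.69 CPM in the LPS libraries and 16.7, 9.59 and 10.03 CPM in the control libraries. Both LPS libraries were below all others, and the other 2 groups overlapped. Its log2 fold change was -1.15 ± 0.29 (adjusted p = 0.00686) in LPS versus control and 0.85 ± 0.29 (adjusted p = 0.0310) in LPS+RCMNs versus LPS. Between LPS+RCMNs and control it was -0.31 ± 0.24 and did not pass. With the length trend removed the fall in LPS versus control was still called (-0.82 ± 0.30, adjusted p = 0.0478, where 46.0% of all tested genes were called) but not with the surface on length and level removed (-0.66 ± 0.28, adjusted p = 0.0894), while the difference in LPS+RCMNs versus LPS (0.53 ± 0.30, adjusted p = 0.181) was not. Without LPS replicate 1 the fall in LPS versus control was -1.05 ± 0.41 and missed the threshold (adjusted p = 0.0674). The call in LPS+RCMNs versus LPS was lost without either LPS library, without LPS+RCMNs replicate 2 and without LPS+RCMNs replicate 3.

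Stat5b was not called in any comparison. Its level was 38.2, 46.5 and 39.9 CPM in the LPS+RCMNs libraries, 39.1 and 47.4 CPM in the LPS libraries and 57.2, 41.2 and 40.3 CPM in the control libraries, so the groups overlapped. The log2 fold changes were -0.10 ± 0.17 in LPS versus control, -0.06 ± 0.17 in LPS+RCMNs versus LPS and -0.15 ± 0.15 in LPS+RCMNs versus control. Its length is in length bin 9, where the median of all genes was -0.72 in LPS versus control and 0.67 in LPS+RCMNs versus LPS. With the length trend removed, Stat5b rose in LPS versus control (0.54 ± 0.18, adjusted p = 0.0344) and fell in LPS+RCMNs versus LPS (-0.65 ± 0.18, adjusted p = 0.0185). Summed over both genes, STAT5 transcripts stood at 46.0, 58.7 and 49.4 CPM in LPS+RCMNs, 44.3 and 53.1 CPM in LPS and 73.9, 50.8 and 50.3 CPM in control, and these groups overlapped. Stat5b made up 83.0%, 79.3% and 80.8% of that sum in LPS+RCMNs, 88.2% and 89.3% in LPS and 77.4%, 81.2% and 80.0% in control. The share in both LPS libraries was above that in all others. Control replicate 1 and LPS+RCMNs replicate 2 were the highest of their groups for Stat3, Stat5a and Stat5b, and the part of this in the results was not tested beyond leaving them out.

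The deposited FPKM of Stat5b differed between groups in a way that its counts did not. It was 8.12, 9.94 and 8.48 in the LPS+RCMNs libraries, 4.8 and 5.75 in the LPS libraries and 13.2, 9.10 and 9.04 in the control libraries, so that in FPKM both LPS libraries were below all others. The length that the deposited count and FPKM imply was 4.94, 4.96 and 4.96 kb in LPS+RCMNs, 6.33 and 6.62 kb in LPS and 4.91, 4.95 and 4.89 kb in control. The LPS value was 1.31 times that of the other 6 libraries. Of 7919 tested genes with a mean of at least 5 FPKM and an implied length in all libraries, 21 (0.265%) had a ratio of at least 1.2. The longest Stat5b transcripts of the GENCODE annotation on this build, Stat5b-201 and Stat5b-202, are 5.06 and 5.21 kb. For Stat3, Stat6, Socs3 and Stat5a the implied length differed little between groups: it was 4.46, 4.46 and 4.47 kb for Stat3 in LPS+RCMNs, LPS and control. The FPKM of Stat5b therefore cannot be compared between LPS and the other groups on the same length. Tested by limma on log2(FPKM + 1), with no scaling between libraries beyond the authors' own, Stat5b was -0.85 ± 0.17 in LPS versus control (adjusted p = 0.00271) and 0.65 ± 0.17 in LPS+RCMNs versus LPS (adjusted p = 0.0114). On that scale the median of all genes was itself -0.33 and 0.27 in the same comparisons.

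**Figure D3:**
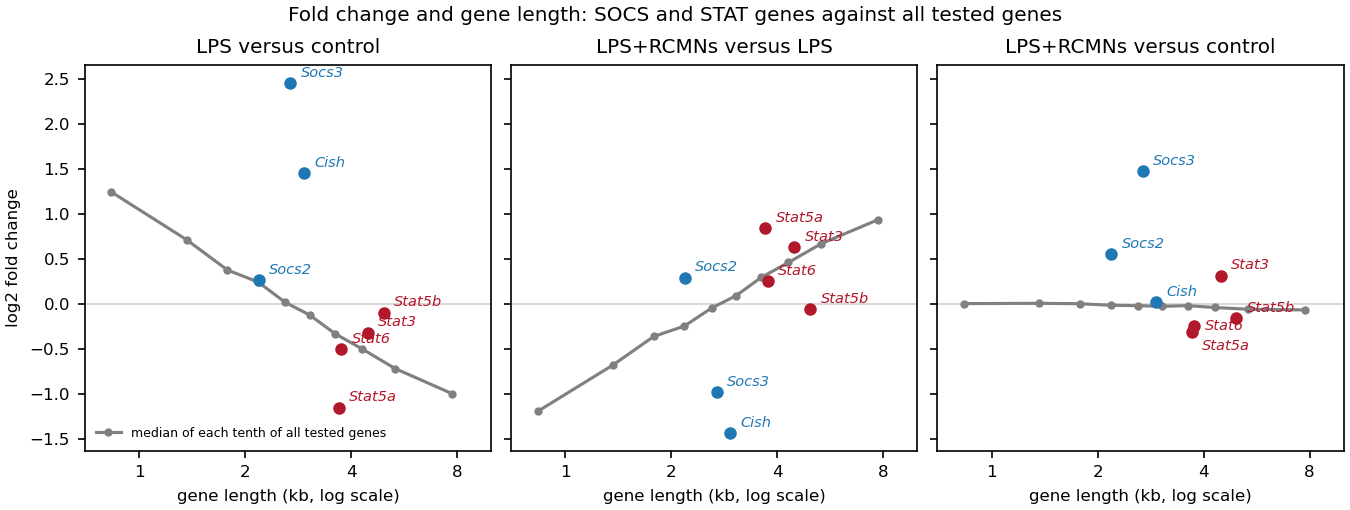
Log2 fold change of the 7 tested genes against gene length in kb (log axis), with SOCS genes in blue and STAT genes in red; the grey line joins the medians of the 10 length bins of all tested genes. Socs3 and Cish lie far from the line in the first 2 panels, Stat3 and Stat6 lie near it, Stat5a lies below it in LPS versus control, and the line is nearly flat in LPS+RCMNs versus control.

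Per length, the order of the 8 genes by their mean in control cells was Stat6, Stat3, Stat5b, Socs3, Stat5a and Cish, with Socs1 and Socs2 lowest. Stat6 averaged 46.2 ± 2.40 FPKM in LPS+RCMNs, 29.0 ± 2.26 FPKM in LPS and 57.5 ± 0.339 FPKM in control (SD, n = 3, 2 and 3), the highest of the 8 in each group. Socs3 averaged 16.8 ± 0.402 FPKM in LPS+RCMNs, 24.9 ± 4.29 FPKM in LPS and 6.34 ± 1.14 FPKM in control. In control it was below Stat5b, at 10.5 ± 2.39 FPKM. In LPS its libraries at 21.8 and 27.9 FPKM came close to those of Stat6 at 30.6 and 27.4 FPKM and did not lie apart from them. In LPS+RCMNs Stat3 averaged 19.1 ± 2.71 FPKM. Its libraries, at 17.45 to 22.19 FPKM, were all above those of Socs3, at 16.36 to 17.14 FPKM, by a narrow margin at the closest. Stat3 averaged 9.19 ± 0.403 FPKM in LPS and 16.1 ± 1.78 FPKM in control. Stat5a averaged 2.81 ± 0.674, 1.16 ± 0.0990 and 3.67 ± 1.31 FPKM in LPS+RCMNs, LPS and control. In LPS it did not differ beyond the spread from Cish, at 1.17 ± 0.170 FPKM, whereas Cish averaged 0.570 ± 0.130 FPKM in LPS+RCMNs and 0.587 ± 0.227 FPKM in control. Socs1 and Socs2 were at or below 0.39 FPKM in every library and could not be ranked against each other.

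Ratios taken within a library do not depend on its scaling. They can still move with gene length, which is 2.69 kb for Socs3, 4.47 kb for Stat3 and 3.75 kb for Stat6. The FPKM ratio of Socs3 to Stat3, a suppressor set against the STAT whose receptor it restrains, was 0.982, 0.737 and 0.964 in the LPS+RCMNs libraries, 2.30 and 3.13 in the LPS libraries and 0.423, 0.371 and 0.384 in the control libraries. The 3 groups did not overlap, and Socs3 exceeded Stat3 in FPKM in both LPS libraries and in no other. The 4 SOCS genes together came to 25.3%, 20.9% and 24.2% of the summed FPKM of the 4 STAT genes in LPS+RCMNs, 50.5% and 68.1% in LPS and 9.26%, 8.17% and 7.89% in control. Socs3 made up nearly all of the SOCS sum, so this ratio repeats the order of Socs3. The ratio of Stat3 to Stat6 was 0.395, 0.454 and 0.386 in LPS+RCMNs, 0.310 and 0.325 in LPS and 0.313, 0.268 and 0.258 in control, with the LPS+RCMNs libraries above all others. The ratio of Stat5a to Stat5b was 0.272, 0.356 and 0.317 in LPS+RCMNs, 0.227 and 0.214 in LPS and 0.392, 0.312 and 0.332 in control, and it carries the shift in the implied length of Stat5b. No test was made on these ratios.

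**Figure D4:**
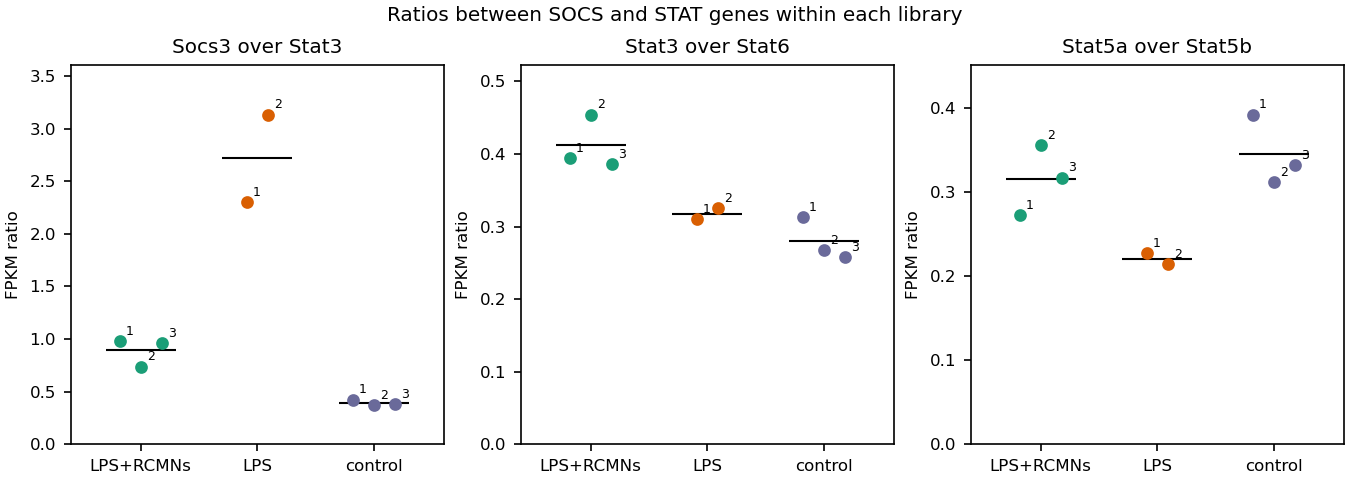
Ratios of FPKM within each library for Socs3 over Stat3, Stat3 over Stat6 and Stat5a over Stat5b; points are libraries marked with their replicate number and lines are group means. Socs3 over Stat3 is 0.737 to 0.982 in LPS+RCMNs, 2.30 and 3.13 in LPS and at most 0.423 in control.

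For each gene the tested genes with the most similar pattern were found among 7959 or 7960 candidates with a mean of at least 5 FPKM. Likeness was the root mean square difference of log2(CPM + 0.5), centred over the 8 libraries. The nearest to Socs3 were Irak3, at 0.14, and Alas1, at 0.21, against a spread of 0.98 in Socs3 itself. Irak3 stood at 48.7, 49.5 and 49.1 CPM in the LPS+RCMNs libraries, 104 and 89.2 CPM in the LPS libraries and 21.1, 16.5 and 16.5 CPM in the control libraries, and like Socs3 it was at an intermediate level in LPS+RCMNs. The nearest to Cish were Cox14 and Pop4, both at 0.19. Cox14 stood at 16.0, 20.1 and 17.8 CPM in LPS+RCMNs, 51.5 and 47.7 CPM in LPS and 21.3, 19.2 and 14.96 CPM in control. The nearest to Stat6 were Elmo1 and Srebf2, both at 0.04, and those to Stat3 were Trp53bp2 and Nf2, at 0.08 and 0.09. Tm7sf3 and Fbxo21, both at 0.11, were nearest to Stat5a, and Uba3 and Cir1, at 0.07 and 0.08, to Stat5b. All the libraries that set these patterns are shared, and the split of the LPS libraries from the others weighs on each. The added 0.5 CPM is close to or above the levels of Socs1 (0.173 to 0.418 CPM) and Socs2 (0.303 to 0.606 CPM). It flattens their differences between libraries, and to a lesser degree those of Cish. The genes nearest to Socs1, Tor1b and Wdr41, and to Socs2, Tmbim6 and Cmtr1, are genes that varied little. These matches therefore do not show a shared pattern.

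The other genes of the pathway were described by role, from lists that hold 115 genes in all. Counts are of tested genes called in each direction, to be read against 31.4% higher and 32.1% lower among all tested genes in LPS versus control, 29.8% higher and 29.5% lower in LPS+RCMNs versus LPS, and 4.33% higher and 3.23% lower in LPS+RCMNs versus control. The other SOCS genes act mainly on growth factor receptors. Of Socs4, Socs5, Socs6 and Socs7, only Socs4 passed the test in LPS versus control (-0.35 ± 0.13, adjusted p = 0.0364) and only Socs6 in LPS+RCMNs versus LPS (0.28 ± 0.11, adjusted p = 0.0497). None of the 4 was called in LPS+RCMNs versus control, and with the length trend removed the counts were 2 higher and 1 lower in LPS versus control and 1 higher and 2 lower in LPS+RCMNs versus LPS. In that fit Socs6 (0.54 and -0.46) and Socs7 (0.91 and -0.84) were called in both comparisons, as was Socs4 (-0.59 and 0.44).

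The median log2 fold change of all tested genes was -0.04, 0.03 and -0.02 in these comparisons. Of 18 listed ligands, 14 were in the table and 11 were tested: 8 rose and 2 fell in LPS versus control, 1 was higher and 7 lower in LPS+RCMNs versus LPS, and 3 were higher and 1 lower in LPS+RCMNs versus control. Their medians were 2.06, -1.54 and 0.70. The counts in the first 2 comparisons were 6 higher and 1 lower, and 2 higher and 6 lower, with the length trend removed, and the medians 1.18 and -0.67. Il6, whose product signals through STAT3, averaged 3.88 ± 0.193 CPM in LPS+RCMNs, 120 ± 18.2 CPM in LPS and 0.413 ± 0.194 CPM in control. Its log2 fold changes were 8.18 ± 0.23 in LPS versus control, -4.96 ± 0.18 in LPS+RCMNs versus LPS and 3.22 ± 0.26 in LPS+RCMNs versus control. Csf3, the granulocyte growth factor and another ligand that acts through STAT3, averaged 4.49 ± 1.29, 84.9 ± 0.116 and 0.0929 ± 0.123 CPM in the same groups; its control level rests on 6 counts, so the fold change is uncertain in size. Il12b averaged 0.345 ± 0.00905, 6.36 ± 0.259 and 0.0155 ± 0.0269 CPM, with 1 count in control. Lif averaged 1.07 ± 0.182, 14.4 ± 0.980 and 0.661 ± 0.427 CPM, and was not called in LPS+RCMNs versus control (0.70 ± 0.43). Osm rose in LPS versus control (0.84 ± 0.26, adjusted p = 0.0186), a call lost with the length trend removed (0.48 ± 0.27, adjusted p = 0.182), with the surface removed (0.60 ± 0.28, adjusted p = 0.113) and by limma on log2(FPKM + 1) (0.34 ± 0.24, adjusted p = 0.231). Il10, Csf2 and Ifnb1 were not tested, and Il10 stood at no more than 0.242 CPM in any library.

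Of 24 listed receptors 19 were tested, and 3 rose and 12 fell in LPS versus control, 10 were higher and 1 lower in LPS+RCMNs versus LPS, and 1 was higher and 4 lower in LPS+RCMNs versus control. With the length trend removed the counts were 2 and 10, 10 and 2, and 2 and 3, where 25.0% and 21.0%, 18.6% and 21.6%, and 4.74% and 2.77% of all tested genes were higher and lower. Il6st, which encodes gp130, the shared signalling chain of the interleukin-6 family and the receptor that SOCS3 binds, averaged 57.0 ± 5.43 CPM in LPS+RCMNs, 20.7 ± 0.350 CPM in LPS and 77.2 ± 3.52 CPM in control. Its log2 fold changes were -1.90 ± 0.11 in LPS versus control, 1.46 ± 0.11 in LPS+RCMNs versus LPS and -0.44 ± 0.09 in LPS+RCMNs versus control, all called, and -1.18, 0.80 and -0.39 with the length trend removed, also called. Il6ra, the chain that binds interleukin-6, averaged 47.3 ± 3.27, 19.5 ± 2.66 and 62.8 ± 6.11 CPM in the same groups. It fell in LPS versus control (-1.69 ± 0.14) and was higher in LPS+RCMNs than in LPS (1.28 ± 0.13). Csf2rb, the signalling chain for GM-CSF that activates STAT5, was -1.08 ± 0.13 in LPS versus control and 1.44 ± 0.13 in LPS+RCMNs versus LPS, or -0.48 and 0.89 with the length trend removed, also called. Ifngr1, a chain of the interferon-gamma receptor, was lower in LPS+RCMNs than in control (-0.72 ± 0.08, adjusted p = 0.00128), and Lifr was too (-3.35 ± 0.45, adjusted p = 0.00321). Il2rg, the common chain of the interleukin-2 and interleukin-4 receptors, was lower in LPS+RCMNs than in LPS (-0.92 ± 0.10), a call kept with the length trend removed (-0.41) and lost with the surface removed (-0.23 ± 0.10, adjusted p = 0.109). Il4ra, which activates STAT6, was the receptor higher in LPS+RCMNs than in control: it averaged 33.7 ± 1.02 CPM in LPS+RCMNs, 24.3 ± 0.719 CPM in LPS and 18.9 ± 1.36 CPM in control, and its log2 fold change was 0.84 ± 0.10 in LPS+RCMNs versus control (adjusted p = 0.00155). That value was 0.89 with the length trend removed, whereas the difference of 0.47 ± 0.11 in LPS+RCMNs versus LPS became -0.14 and was not called.

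**Figure D5:**
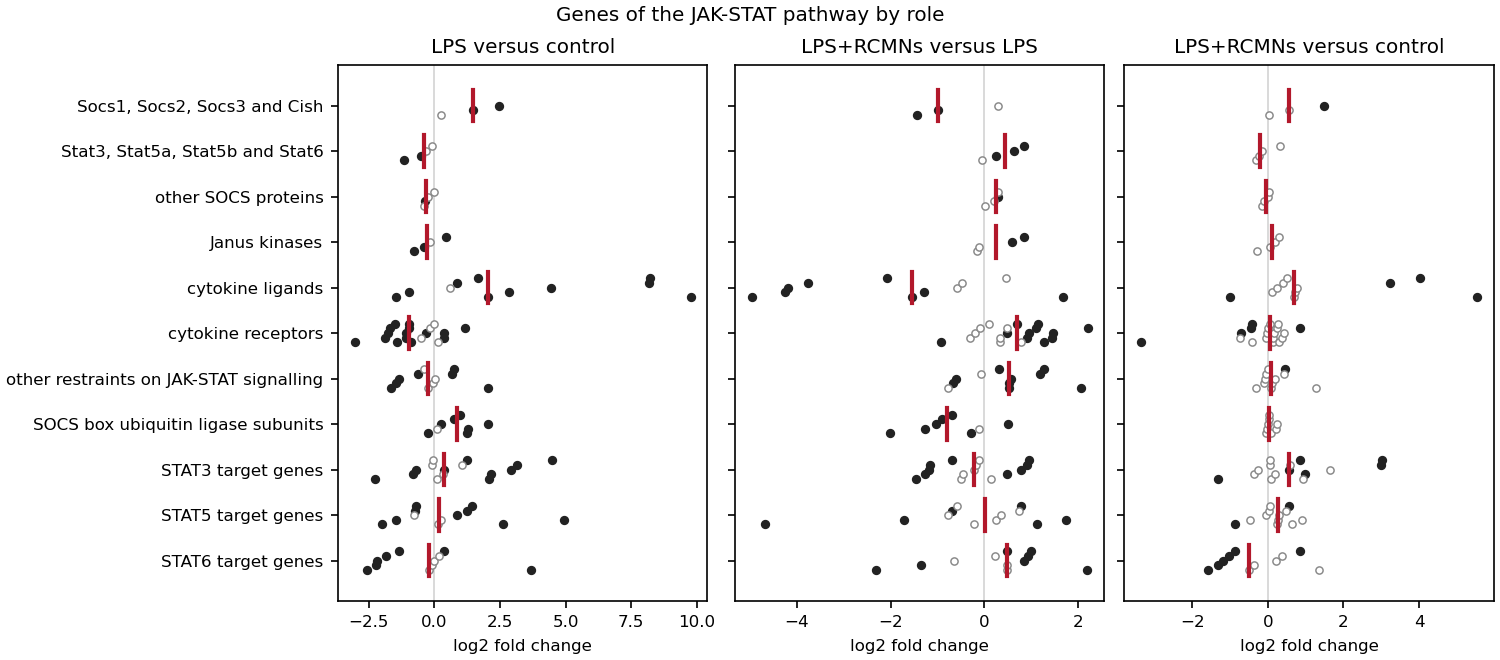
Log2 fold changes of the tested genes of each pathway list, with 1 row per list; filled points passed the test, open points did not, red bars are list medians, and the horizontal scales differ between panels. Ligands lie to the right in LPS versus control and to the left in LPS+RCMNs versus LPS, receptors the other way round, and most genes of LPS+RCMNs versus control are open points near 0.

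The JAKs are the kinases that SOCS proteins restrain. Of the 4, Jak2 rose (0.44 ± 0.13) and Jak1 (-0.41 ± 0.10) and Jak3 (-0.80 ± 0.22) fell in LPS versus control; Jak1 (0.60 ± 0.10) and Jak3 (0.85 ± 0.22) were higher in LPS+RCMNs than in LPS. Tyk2 was called in none of the comparisons and no JAK was called in LPS+RCMNs versus control. With the length trend removed Jak2 alone was called in LPS versus control (0.97 ± 0.13), Jak1 had the opposite sign there (0.17 ± 0.10), and Jak2 (-0.65 ± 0.13) and Tyk2 (-0.65 ± 0.18) were lower in LPS+RCMNs than in LPS. Irf9, a partner of STATs in interferon signalling, rose in LPS versus control (0.76 ± 0.15) and was lower in LPS+RCMNs than in LPS (-0.69 ± 0.15). With the length trend removed these values were 0.65 and -0.56, both called. By limma on log2(FPKM + 1) they were 0.24 and -0.26, neither called. Stat2 was called in no comparison. Stat4 was not tested, with 1 count in the 8 libraries.

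A further 11 restraints on the pathway, phosphatases, PIAS proteins, adaptors and ligases, split by direction. In LPS versus control 3 rose and 4 fell, in LPS+RCMNs versus LPS 7 were higher and 2 lower, and in LPS+RCMNs versus control 1 was higher. The first 2 counts were 5 and 4, and 4 and 3, with the length trend removed. Ptpn2, a phosphatase of JAKs and STATs, was 0.68 ± 0.09 in LPS versus control and -0.67 ± 0.09 in LPS+RCMNs versus LPS. These values were 0.30 and -0.29, still called, with the length trend removed, and 0.15 and -0.16, not called, with the surface removed. Pias1, of the family of protein inhibitors of activated STATs, was -1.36 ± 0.12 and 1.28 ± 0.12, and Cblb, a ubiquitin ligase, was -1.65 ± 0.16 and 2.06 ± 0.16 in the same comparisons. Pias1 was -0.82 and 0.77 and Cblb -0.80 and 1.28 with the length trend removed, all called. Ptpn1, the phosphatase PTP1B, was the restraint called in LPS+RCMNs versus control (0.45 ± 0.09, adjusted p = 0.0172). Of the 8 subunits and conjugating enzymes with which a SOCS box works, 6 rose and 1 fell in LPS versus control, and 1 was higher and 6 lower in LPS+RCMNs versus LPS. The counts were 5 and 0, and 0 and 4, with the length trend removed. Elob, a short gene for elongin B, had 2.06 ± 0.10 and -2.02 ± 0.10 in these comparisons, but 0.38 ± 0.09 and -0.35 ± 0.09 with the length trend removed. None of the 8 was called in LPS+RCMNs versus control.

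Known targets of the STATs were also counted. Of 15 tested STAT3 targets, 7 rose and 3 fell in LPS versus control, 4 were higher and 5 lower in LPS+RCMNs versus LPS, and 5 were higher and 1 lower in LPS+RCMNs versus control, where their median log2 fold change was 0.55 against -0.02 for all genes. Il1rn, the interleukin-1 receptor antagonist, averaged 267 ± 76.1 CPM in LPS+RCMNs, 733 ± 122 CPM in LPS and 32.8 ± 5.14 CPM in control, which is 4.48 ± 0.25 in LPS versus control and 3.03 ± 0.23 in LPS+RCMNs versus control on the log2 scale. Pim1, a survival kinase induced by STAT3 and STAT5, was 1.24 ± 0.13 in LPS versus control, -0.69 ± 0.13 in LPS+RCMNs versus LPS and 0.55 ± 0.12 in LPS+RCMNs versus control. Bcl3 rose in LPS versus control (2.09 ± 0.43), and Tnfrsf1b, the second TNF receptor, rose as well (2.14 ± 0.18). In LPS+RCMNs versus LPS Tnfrsf1b was lower (-1.16 ± 0.18), while Etv3 (0.91 ± 0.09) and Bcl6 (0.77 ± 0.12) were higher. With the length trend removed these 3 values were -1.74, 0.29 and 0.50, all called. Il1r2, the decoy receptor for interleukin-1, was lower in LPS+RCMNs than in control (-1.31 ± 0.20). Without control replicate 1 and LPS+RCMNs replicate 2, the STAT3 counts in LPS+RCMNs versus control were 7 higher and 3 lower, against 14.8% and 10.6% of all tested genes, and the median was 0.11.

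Of 12 tested STAT5 targets, 5 rose and 4 fell in LPS versus control, 3 were higher and 3 lower in LPS+RCMNs versus LPS, and 1 was higher and 1 lower in LPS+RCMNs versus control. Gadd45g averaged 0.954 ± 0.210 CPM in LPS+RCMNs, 24.6 ± 5.53 CPM in LPS and 0.799 ± 0.430 CPM in control. Of the 3 cyclin genes listed, Ccnd2 fell in LPS versus control (-2.0 ± 0.15), Ccnd1 and Ccnd2 were higher in LPS+RCMNs than in LPS (1.74 ± 0.22 and 1.13 ± 0.14), and Ccnd3 was not called (0.24 ± 0.16 and -0.22 ± 0.16). Ccnd2 was -1.21 ± 0.14 and 0.40 ± 0.14 with the length trend removed, both called. In that fit Ccnd1 also fell in LPS versus control (-1.10 ± 0.20) and was higher in LPS+RCMNs than in LPS (1.40 ± 0.21), both called. Of 11 tested STAT6 targets, 2 rose and 5 fell in LPS versus control, 5 were higher and 2 lower in LPS+RCMNs versus LPS, and 1 was higher and 5 lower in LPS+RCMNs versus control. These counts were 3 and 5, 3 and 3, and 1 and 5 with the length trend removed, and the median in LPS+RCMNs versus LPS was 0.19, against 0.47 without the correction. Mrc1, the mannose receptor of alternatively activated macrophages, averaged 128 ± 7.35 CPM in LPS+RCMNs, 71.6 ± 9.83 CPM in LPS and 258 ± 36.9 CPM in control; it fell in LPS versus control (-1.85 ± 0.14, or -1.16 with the length trend removed, also called) and was lower in LPS+RCMNs than in control (-1.02 ± 0.12). Arg1, arginase-1, averaged 123 ± 42.9 CPM in LPS+RCMNs, 27.2 ± 5.69 CPM in LPS and 160 ± 74.1 CPM in control, and was not called in LPS+RCMNs versus control (-0.38 ± 0.38). Irf4 fell in LPS versus control (-2.24 ± 0.35), Klf4 was lower in LPS+RCMNs than in control (-1.58 ± 0.29), and Ccl22 rose in LPS versus control (3.68 ± 0.51) where the control level rests on 9 counts. Il4ra, also a STAT6 target, was the list's gene that was higher in LPS+RCMNs than in control.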

How the data were processed

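RNA of 8 libraries was analysed from 1 table in which the authors deposited, per gene and sample, estimated counts and FPKM. The build was mm10, per the submitters' processing notes; the aligner, the counter and any use of strand are not given in those sources. Of counts above 0, 77.8% were not whole (tolerance 0.001), so they were rounded. A further 4 per-sample columns matched no sample and were not used. edgeR 4.0.16 in R 4.3.3 fitted all 3 groups (filterByExpr, TMM, quasi-likelihood test, Benjamini-Hochberg, threshold 0.05), with no replicate block: same-numbered libraries did not deviate together. Alternatives used limma 3.58.1 on log2(FPKM + 1), DESeq2 1.42.0, other filters, libraries left out, and a loess trend (span 0.4) on gene length removed. The procedures were tested on simulated data. Positions and promoters are from RefSeq, and 17468 gene IDs matched. The genes and lists were chosen with earlier results of these data known. Named genes were the 8, a set list, and up to 3 of smallest p per list and comparison. Results for certain genes are not reported here.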

Additional observations from a re-analysis of the deposited data

How the results depend on the processing

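Socs3 kept its calls in all 18 alternative settings and Cish its 2 calls in all 17 in which it was tested. In LPS+RCMNs versus LPS, 3 of the 8 genes were called with either length correction, and 3 to 4 with a library left out. With a filter of at least 5 FPKM in at least 2 libraries 3 were called, as were 68.6% of all tested genes. That filter left Socs1, Socs2, Cish and Stat5a untested, so its count cannot be set beside the others. In LPS+RCMNs versus control, 3 were called without control replicate 1 and LPS+RCMNs replicate 2, 2 by limma on FPKM, 2 with the surface on length and level removed, and 1 to 1 with a library left out; in LPS versus control, 3 to 5 were. Over all genes, LPS+RCMNs versus LPS gave 4574 calls with that surface removed and 5613 to 7685 with a library left out. LPS+RCMNs versus control gave 454 calls with the replicate block, 1379 by DESeq2, 3017 without both libraries and 322 to 1372 with a library left out (LPS versus control 6002 to 7930). The block shares only numbers. With it the share of all tested genes called was 56.9% in LPS versus control, against 63.4% without it. The shares were 51.9% against 59.3% in LPS+RCMNs versus LPS and 3.81% against 7.56% in LPS+RCMNs versus control.

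Log2 fold changes that reversed sign in LPS versus control were Stat5b, at 0.14 without both libraries, 0.54 with the length trend and 0.56 with the surface removed (-0.19 to 0.14 with a library left out), Stat3, at 0.22 and 0.18 with those corrections, and Socs2, at -0.12 by limma (-0.28 to 0.73). In LPS+RCMNs versus LPS, Stat5b was 0.0043 with the block and 0.65 by limma (-0.21 to 0.055), Stat6 was -0.079 with the length trend removed, and Socs2 was -0.15 to 0.85. In LPS+RCMNs versus control, Cish was -0.029 without both libraries and -0.0081 by limma (-0.24 to 0.27), Stat5a was -0.47 to 0.026 and Stat5b -0.23 to 0.056 with a library left out. The cause was not tested. Depth limits Socs1, Socs2 and Cish most.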
